A study of Mus musculus with 6 samples.

Results

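The genes described here encode the nuclear subunits of the mitochondrial respiratory chain and of ATP synthase. They were chosen by symbol, as every gene whose name in the array's annotation matched the subunit families Nduf (a, b, c, s or v with a number), Sdha to Sdhd, Uqcr, Cox4 to Cox8 and Atp5. The rule used names only and no measured value. It found 80 genes among 19938, of which 33 belong to complex I, 4 to complex II, 8 to complex III, 18 to complex IV and 17 to complex V. Ndufa4 was counted with complex IV, to which its protein is now assigned. Cox7c and Ndufb4 also matched the families, but each was read only by probe sets shared with another symbol and was left out.

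Transcript levels came from 6 one-colour GeneChip Mouse Gene arrays of V6.5 embryonic stem cells, a line used for mouse genetics. All 6 samples carried a short hairpin RNA under doxycycline (dox) control and were maintained with leukemia inhibitory factor (LIF) on DR4 embryo fibroblasts that mitomycin C had stopped from dividing. Hairpin 1 and hairpin 2 were directed against Pcgf6, a polycomb group gene of the repressive complex PRC1.6, and a scrambled hairpin was the control. Each of the 3 lines was measured on 1 array with dox at 1 µg/ml and on 1 array without it, so the Pcgf6 hairpins gave 2 arrays with dox and 2 without, and the scrambled hairpin 1 of each. The title of the series concerns Pcgf6 in mesodermal differentiation and reprogramming, and says nothing of respiration. Dox itself is an antibiotic that also acts on mitochondrial ribosomes, and all 3 lines received it. The labels do not state separate cultures, and no condition of a line was measured on more than 1 array. Arrays grouped together carried different hairpins, so a p-value here reflects the spread between the lines among these particular samples.

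The targeted gene followed the labels. Pcgf6 stood at a log2 level of 9.39 with dox and 11.56 without under hairpin 1, at 9.27 and 11.70 under hairpin 2, and at 11.82 and 11.80 in the scrambled line. It fell by 2.30 on the log2 scale in the hairpin lines (SE 0.10, n = 2 against 2, limma adjusted p = 0.000846). All 10 embryonic stem cell markers listed were measured, and their mean level lay between 11.88 and 12.08 on the 6 arrays. The 19 measured markers of feeder fibroblasts were also present, with mean levels of 10.62 with dox and 10.60 without under hairpin 1, 10.87 and 10.45 under hairpin 2, and 10.31 and 9.76 in the scrambled line. The uninduced scrambled array was the lowest of the 6 for 18 of the 19 feeder markers, against 18.8% of genes. It was the highest for 6 of the 10 stem cell markers, against 22.3% of genes. In such mixed samples, fewer cells of a type and less RNA per cell cannot be told apart.

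Complex I takes electrons from NADH and complex II from succinate, complex III passes them to cytochrome c, and complex IV passes them on to oxygen. The energy released drives protons across the inner membrane at complexes I, III and IV, and ATP synthase, complex V, uses their return to make ATP. A few subunits of complexes I, III, IV and V are made from mitochondrial DNA, and all the others come from the nucleus, where the transcription factors NRF1, GABPA (an ETS factor) and YY1 are known regulators of many of them. Many pluripotent stem cells are known for a metabolism that leans on glycolysis, and how far these cells do was not measured here.

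The sequences upstream of 4 members named in the comparisons below, and of 1 related gene, are shown first, because the factors named above act at such promoters. They were taken from the RefSeq promoter table of GRCm38.p6, the 250 bases before the annotated start, in the direction of transcription. Ndufv3, an accessory subunit of the NADH-binding part of complex I, had the lowest fitted value with dox in the hairpin lines. Uqcr11, a small subunit of complex III, had the highest there. Atp5e, the epsilon subunit in the central stalk of ATP synthase, had the lowest value in the scrambled pair, and Sdhd, a membrane anchor of complex II, the lowest in the hairpin 2 pair. Slc25a31, a germ-cell carrier that exchanges ADP for ATP across the inner membrane, is no subunit of the chain and is shown because it was the one gene of the related lists that changed. The windows lie at chr17:31519865-31520114 on the plus strand for Ndufv3, chr10:80406822-80407071 on the minus strand for Uqcr11, chr2:174464102-174464351 on the minus strand for Atp5e, chr9:50603850-50604099 on the minus strand for Sdhd and chr3:40708621-40708870 on the plus strand for Slc25a31. Capitals mark matches, on either strand, to the NRF1 letters (GCGCA, any base, then GCGC), the ETS letters CCGGAAG, the YY1 letters AANATGGCG, the E-box CACGTG (bound by MGA and MAX, partners of PCGF6) and the E2F letters TTCCCGC.
Ndufv3: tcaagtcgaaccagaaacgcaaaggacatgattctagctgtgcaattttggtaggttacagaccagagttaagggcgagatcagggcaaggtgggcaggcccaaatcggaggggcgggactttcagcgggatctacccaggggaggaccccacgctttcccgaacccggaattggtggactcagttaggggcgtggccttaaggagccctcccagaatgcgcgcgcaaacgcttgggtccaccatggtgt
Uqcr11: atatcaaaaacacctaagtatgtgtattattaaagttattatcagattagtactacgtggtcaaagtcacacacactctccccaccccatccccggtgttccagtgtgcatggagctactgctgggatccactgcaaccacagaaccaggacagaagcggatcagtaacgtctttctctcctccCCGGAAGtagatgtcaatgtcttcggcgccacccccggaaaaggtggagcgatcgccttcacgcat
Atp5e: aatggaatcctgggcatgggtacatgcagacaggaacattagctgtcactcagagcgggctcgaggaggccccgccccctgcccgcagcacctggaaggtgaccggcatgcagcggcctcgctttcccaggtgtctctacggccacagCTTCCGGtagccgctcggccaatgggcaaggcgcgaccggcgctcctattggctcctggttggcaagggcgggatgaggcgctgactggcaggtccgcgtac
Sdhd: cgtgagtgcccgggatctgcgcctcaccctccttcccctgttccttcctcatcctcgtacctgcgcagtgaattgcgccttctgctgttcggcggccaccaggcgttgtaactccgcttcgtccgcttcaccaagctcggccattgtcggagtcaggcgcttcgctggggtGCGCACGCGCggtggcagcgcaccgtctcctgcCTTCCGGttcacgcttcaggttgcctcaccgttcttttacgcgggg
Slc25a31: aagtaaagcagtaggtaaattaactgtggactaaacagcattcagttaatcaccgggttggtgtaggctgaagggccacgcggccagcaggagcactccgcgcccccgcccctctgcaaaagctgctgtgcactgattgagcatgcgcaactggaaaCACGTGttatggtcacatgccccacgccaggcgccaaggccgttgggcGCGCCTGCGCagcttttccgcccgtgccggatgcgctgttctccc

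Uqcr11 and Atp5e each held 1 ETS match, Sdhd held an NRF1 and an ETS match, Slc25a31 held an E-box and an NRF1 match, and none of these letters was found in the window of Ndufv3. The promoter table named 66 of the 80 members. The NRF1 letters were found for 12 of the 66 members (18.2%), against 4.23% of all 27025 genes in the table and 3.74% of its 32851 promoter windows. The ETS letters were also found for 12 members (18.2%), against 7.83% of genes and 6.91% of windows. The YY1 letters occurred for 3 members (4.55% against 1.29% of genes and 1.12% of windows), the E-box for 6 (9.09% against 6.86% and 6.02%) and the E2F letters for 6 (9.09% against 4.38% and 3.82%). No overlap between the letters of different motifs was required or barred. In all, 23 of 66 members had the NRF1, ETS or YY1 letters (34.9%, against 12.2% of genes). Sdha, the flavoprotein of complex II, held 3 NRF1 matches and Cox6a1 of complex IV held 2. Of the tissue-restricted isoforms, 4 were in the table and 0 of them held any of the 5 motifs. These are matches of letters in a window and not measured binding.

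The levels of the members varied little between the arrays. Their means over the 6 arrays ran from 4.87 to 13.43 on the log2 scale. The median of these means was 10.95, beside 7.55 over all genes, and 74 of the 80 members lay above the median gene. The comparison of ranges that follows was not matched for level. The range of a member over the arrays had a median of 0.21, against 0.29 over all genes, and stayed under 1.5-fold for 79 of the 80 members, as it did for 90.5% of genes. The exception was Cox7a1, with a range of 0.70. Atp5b, the catalytic beta subunit of ATP synthase, had the smallest range, 0.02. Its levels were 13.43 with dox and 13.44 without under hairpin 1, 13.43 and 13.43 under hairpin 2, and 13.44 and 13.42 in the scrambled line.

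What variation there was showed most on the scrambled arrays. The median deviation of the 80 members from their own means was 0.07 on the uninduced scrambled array and -0.04 on the induced one, and lay between -0.03 and 0.03 on the 4 hairpin arrays. The uninduced scrambled array held the highest value of the 6 for 42 members (52.5%), against 22.3% of all genes. The induced scrambled array held the lowest value for 32 members (40.0%), against 16.2% of genes. The uninduced scrambled array is also the one with the lowest feeder level, 9.76, and the highest stem cell marker level, 12.08, and the part of these differences in the members' values was not tested.

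**Figure D1:**
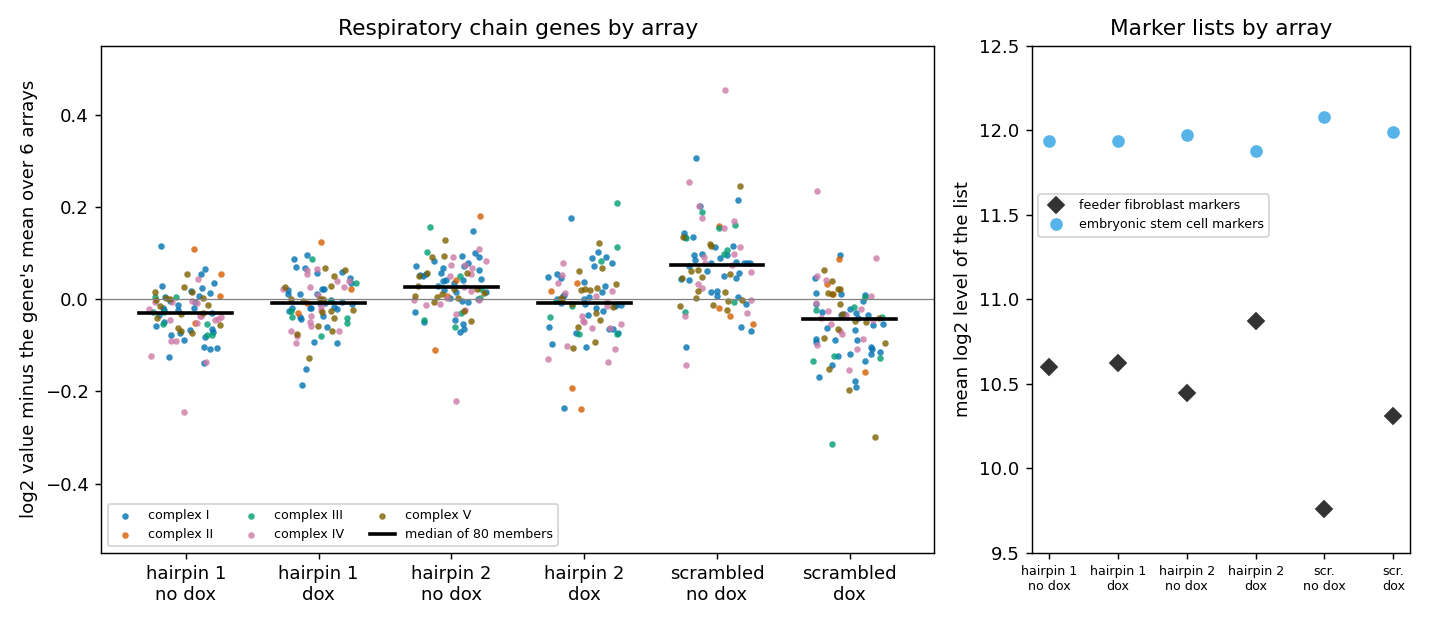
Left, each of the 80 respiratory chain genes on each array as its log2 value minus its own mean over the 6 arrays, coloured by complex, with a bar at the median; right, the mean log2 level of the feeder and stem cell marker lists on the same arrays. The members' median is highest, 0.07, on the uninduced scrambled array, where the feeder list is lowest, 9.76.

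The first comparison asked whether knockdown of Pcgf6 went with a change in the respiratory chain genes. It set the 2 hairpin arrays with dox against the 2 without. Of the 80 members 0 passed the limma threshold of an adjusted p below 0.05, where 40 of 19938 genes did (0.201%). At an unadjusted p below 0.05 there was 1 member, Ndufv3 (1.25%, against 8.75% of genes). The fitted differences of the members lay between -0.29 and 0.21, with a median of -0.00 beside -0.01 over all genes, and 41 members (51.2%) were below 0, against 52.5% of genes. For all 80 members the 95% interval of the difference lay inside 1.5-fold in either direction, as it did for 92.3% of genes. Both dox arrays lay below both uninduced arrays for 17 members (21.2%, against 21.8% of genes) and above them for 7 (8.75%, against 17.9% of genes). The feeder markers had a median difference of 0.23 in this comparison, with 0 of 19 past the threshold, and their part in the members' values was not tested.

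Complex I is the largest of the complexes, with 6 measured core subunits and 27 accessory ones among the members. Of its 33 members 14 had a fitted value below 0 in the hairpin comparison, with a median of 0.01 and a range from -0.29 to 0.11. Ndufv3 stood at 8.81 with dox and 9.11 without under hairpin 1, at 8.76 and 9.04 under hairpin 2, and at 9.04 and 9.21 in the scrambled line. Both dox arrays of the hairpin lines lay below every uninduced array, and the scrambled line was also lower with dox. The fitted difference in the hairpin lines was -0.29 (SE 0.09, 95% interval -0.50 to -0.08, n = 2 against 2), which did not pass (limma adjusted p = 0.476). The change of Ndufv3 minus the scrambled change was -0.12 (SE 0.15, 95% interval -0.48 to 0.24, limma adjusted p = 0.999).

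The core subunits of complex I carry the flavin and the iron-sulphur clusters. Ndufv1, which binds NADH, stood at 10.69 with dox and 10.63 without under hairpin 1, at 10.78 and 10.65 under hairpin 2, and at 10.55 and 10.78 in the scrambled line. It was higher with dox in both hairpin lines and lower in the scrambled line. In the hairpin comparison the other core subunits Ndufv2, Ndufs1, Ndufs3, Ndufs7 and Ndufs8 all had fitted values between -0.06 and 0.06, with 2 of the 6 core genes below 0. Among accessory subunits, Ndufa3 measured -0.12, Ndufs6 -0.11, Ndufb6 -0.11 and Ndufa1 0.11, and none of these passed. Ndufs4, an accessory subunit, stood at 11.66 and 11.71 under hairpin 1, at 11.64 and 11.72 under hairpin 2, and at 11.62 and 11.72 in the scrambled line, each time with dox first. All 3 dox arrays lay below all 3 others for Ndufs4, by at most 0.11 within a line.

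Complex II, succinate dehydrogenase, links the tricarboxylic acid cycle to the chain and has its 4 subunits all encoded in the nucleus. Sdhd stood at 11.15 with dox and 11.19 without under hairpin 1, at 10.89 and 11.31 under hairpin 2, and at 11.17 and 11.08 in the scrambled line. The low value was the dox array of hairpin 2 alone, and hairpin 1 did not share it. The fitted difference was -0.23 (SE 0.12, 95% interval -0.50 to 0.05, limma adjusted p = 0.649), and it was -0.10 without the dox array of hairpin 2 and -0.36 without that of hairpin 1. Sdha, the flavoprotein, differed by at most 0.05 within any line. Sdhb, the iron-sulphur subunit, was level within 0.02 in both hairpin lines and stood at 10.34 with dox and 10.65 without in the scrambled line. Sdhc, the other anchor, differed with dox by 0.02 under hairpin 1, by -0.08 under hairpin 2 and by 0.11 in the scrambled line.

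Complex III, the cytochrome bc1 complex, had 8 members, of which 5 were below 0 in the hairpin comparison. Uqcr11 stood at 10.69 with dox and 10.54 without under hairpin 1, at 10.81 and 10.54 under hairpin 2, and at 10.28 and 10.73 in the scrambled line. Both hairpin lines were higher with dox and the scrambled line was lower. The fitted difference in the hairpin lines was 0.21 (SE 0.09, 95% interval -0.01 to 0.42, limma adjusted p = 0.590). A second probe set of Uqcr11 differed from these pair values by 0.03, 0.07 and 0.05 in the hairpin 1, hairpin 2 and scrambled lines. The core proteins Uqcrc1 and Uqcrc2 and the Rieske iron-sulphur protein Uqcrfs1 differed by no more than 0.13 within either hairpin line. Uqcr10 measured 0.05 under hairpin 1 and -0.23 under hairpin 2.

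Complex IV, cytochrome c oxidase, had 11 widely expressed members and 7 isoforms known to be restricted to particular tissues. The hairpin comparison gave fitted values from -0.08 to 0.13 for the widely expressed members, with 7 of the 11 below 0. Cox7a2, the widely expressed form of subunit 7a, had the highest, 0.13 (SE 0.09, limma adjusted p = 0.722), which was 0.07 without the uninduced array of hairpin 1. Its levels were 11.62 with dox and 11.44 without under hairpin 1, 11.65 and 11.56 under hairpin 2, and 11.51 and 11.67 in the scrambled line. Cox7a2l, a factor that joins complexes III and IV into supercomplexes, had the widest gap between probe sets. Between its 2 probe sets the gap was 0.19 for hairpin 1, 0.37 for hairpin 2 and 0.18 for the scrambled line, with opposite signs in 2 of the pairs. Among the 16 members with several probe sets, only Cox7a2l, Atp5l (0.12 in the hairpin 1 pair) and Ndufb11 (0.10 in the scrambled pair) differed by over 0.1 in any pair. The probe sets of Ndufb11 also had opposite signs in 2 of the pairs.

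ATP synthase, complex V, has a catalytic head, a ring of c subunits that turns in the membrane and a stalk that holds the head still. Of its 17 members 9 were below 0 in the hairpin comparison, between -0.14 and 0.06. Atp5h, of the peripheral stalk, had the lowest of them, -0.14 (SE 0.09, limma adjusted p = 0.710), and stood at 11.73 with dox and 11.77 without under hairpin 1, at 11.66 and 11.90 under hairpin 2, and at 11.74 and 11.81 in the scrambled line. Without the uninduced array of hairpin 2 its fitted difference was -0.08. The catalytic alpha subunit Atp5a1 differed by at most 0.04 within any line. The 3 genes Atp5g1, Atp5g2 and Atp5g3 encode the same mature c subunit. Atp5g1 differed with dox by 0.12 under hairpin 1, by -0.00 under hairpin 2 and by -0.15 in the scrambled line. The same differences were -0.10, -0.10 and -0.11 for Atp5g2 and -0.01, -0.03 and -0.07 for Atp5g3.

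**Figure D2:**
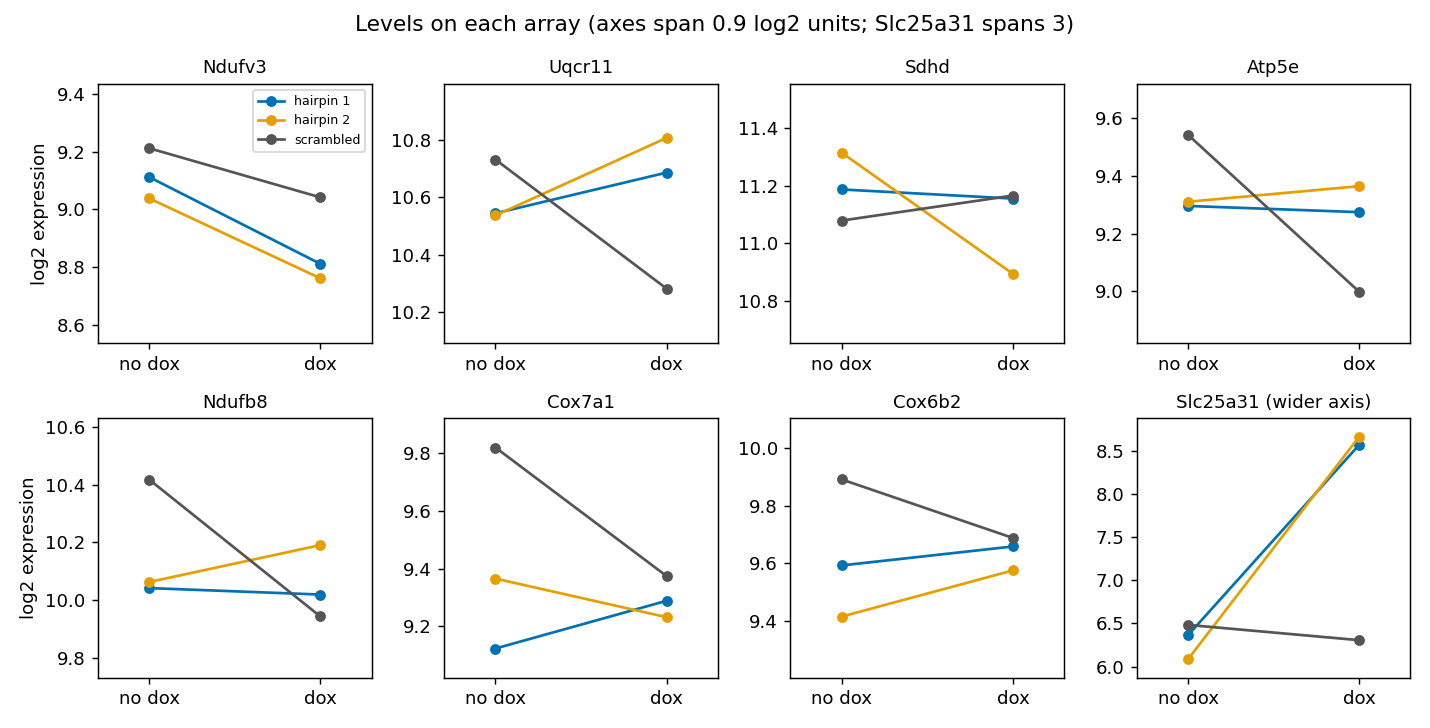
Log2 level with and without dox of 7 members and of Slc25a31 (last panel, on a wider axis), with 1 line per hairpin and 1 array per point. Ndufv3 is lower with dox in all 3 lines, Uqcr11, Atp5e and Ndufb8 part ways mainly through the scrambled line, and Slc25a31 goes from 6.36 and 6.09 to 8.57 and 8.66 in the hairpin lines.

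Each line was then read by itself, as 1 array against 1 and with no test. Under hairpin 1 the members' median difference was 0.02, beside 0.00 over all genes, and 32 of 80 (40.0%) were lower with dox, against 49.6% of genes. Under hairpin 2 the median was -0.02, beside -0.02 over all genes, and 54 members (67.5%) were lower, against 54.2%. In the scrambled line the median was -0.13, beside -0.01 over all genes, and 66 members (82.5%) were lower with dox, against 53.4%. No member reached 1.5-fold in any line, where 0.868% of genes did for hairpin 1, 2.61% for hairpin 2 and 1.7% for the scrambled hairpin.

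At 1.2-fold, hairpin 1 had 0 members higher and 1 lower with dox, against 4.49% and 4.13% of genes, and the lower one was Ndufv3 at -0.30. Hairpin 2 had 1 higher, Uqcr11 at 0.27, and 2 lower, Sdhd at -0.42 and Ndufv3 at -0.28, against 11.5% and 9.27% of genes. The scrambled line had 0 higher, against 7.97% of genes, and 11 lower (13.8%), against 6.25%. These 11 came from every complex. The complex I members among them were Ndufb8 (-0.48) and Ndufa7 (-0.39), and the complex II member was Sdhb (-0.32). From complex III they were Uqcr11 (-0.45), Uqcrq (-0.31) and Uqcr10 (-0.29), and from complex IV Cox7a1 (-0.45), Cox7a2l (-0.33) and Cox4i1 (-0.31). From complex V they were Atp5e (-0.54) and Atp5mpl (-0.33).

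By complex, lower values with dox were found in the scrambled line for 30 of 33 members of complex I (median -0.14), 1 of 4 of complex II, 8 of 8 of complex III (median -0.20), 15 of 18 of complex IV (median -0.13) and 12 of 17 of complex V (median -0.08). Of the 5 subunits of the head and central stalk of ATP synthase, Atp5e and Atp5c1 were lower. In the same pair the feeder list had a median difference of 0.57 and was higher for all 19 markers, where 53.4% of all genes were lower. The stem cell markers had a median of -0.08. Under hairpin 2 the feeder median was 0.40 and under hairpin 1 it was 0.04. The part of the feeder difference in the members' lower values was not tested.

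**Figure D3:**
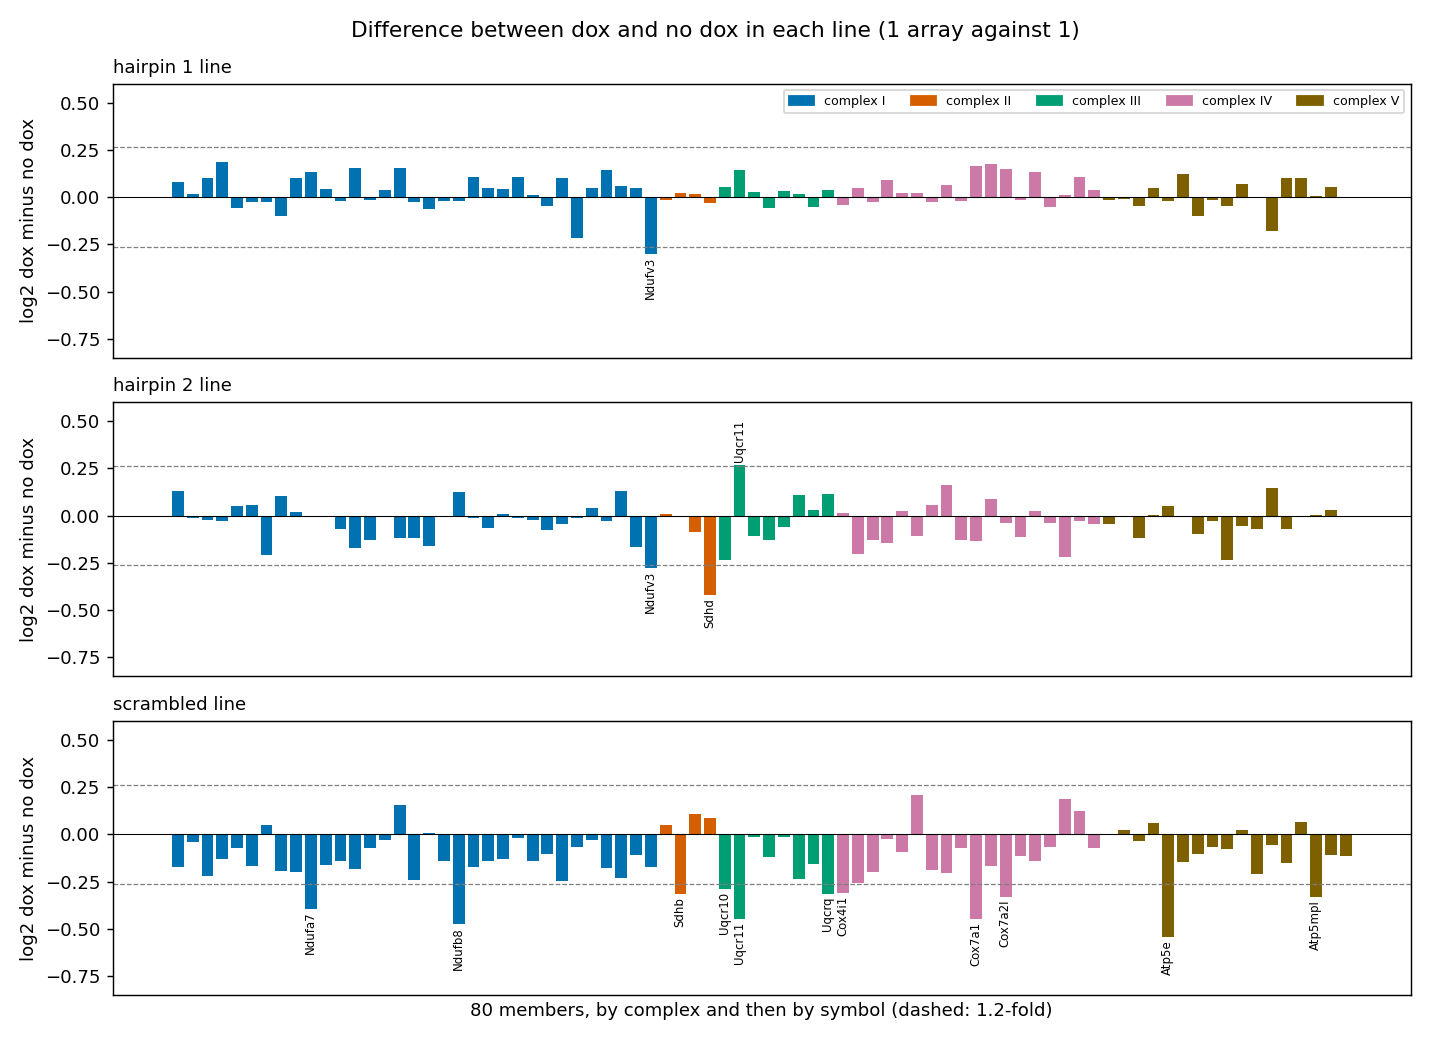
Log2 difference between the dox array and the uninduced array for each of the 80 members, in complex and symbol order, for the hairpin 1, hairpin 2 and scrambled lines; names are given beyond 1.2-fold (dashed). In the scrambled line 66 of the 80 bars point down and 11 pass 1.2-fold, against 1 for hairpin 1 and 3 for hairpin 2.

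Whether the response of the hairpin lines differed from that of the scrambled line was tested as the difference between both changes. By limma 0 of 80 members passed, where 14 of 19938 genes did (0.0702%). At an unadjusted p below 0.05 there were 6 members (7.5%, against 2.63% of genes in the same direction and 4.55% in either). In all of them the change of the hairpin lines lay above that of the scrambled line, which says nothing of their levels. The members' median was 0.12, beside 0.00 over all genes, and 57 members (71.2%) were above 0, against 50.3%. Only 51 members had a 95% interval inside 1.5-fold, as did 58.6% of genes, and the scrambled change rests on 1 array against 1.

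The 6 members were Uqcr11, Atp5e, Ndufb8, Ndufa7, Cox7a1 and Uqcrq. Uqcr11 differed by 0.65 (SE 0.15, 95% interval 0.28 to 1.02, limma adjusted p = 0.781), made of 0.21 in the hairpin lines and -0.45 in the scrambled line. Atp5e stood at 9.27 with dox and 9.30 without under hairpin 1, at 9.36 and 9.31 under hairpin 2, and at 9.00 and 9.54 in the scrambled line. The hairpin lines were level and the scrambled line held both the highest and the lowest value. The difference for Atp5e was 0.56 (SE 0.15, 95% interval 0.20 to 0.92, limma adjusted p = 0.880). Ndufb8, an accessory subunit of the membrane arm of complex I, stood at 10.02 and 10.04 under hairpin 1, at 10.19 and 10.06 under hairpin 2, and at 9.94 and 10.42 in the scrambled line, with dox first, and differed by 0.53 (SE 0.16, limma adjusted p = 0.999). Cox7a1 differed by 0.46, Ndufa7 by 0.46 and Uqcrq by 0.39, all with limma adjusted p = 0.999.

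At the other end Sdhd measured -0.31 (SE 0.20), Cox8b -0.29 (SE 0.17) and Cox6a2 -0.25 (SE 0.15), and none reached an unadjusted p below 0.05. There were 15 members higher with dox in both hairpin lines and lower in the scrambled line (18.8%, against 11.4% of genes) and 5 with the opposite pattern (6.25%, against 12.0%). In all of these the scrambled arrays are single. The feeder list differed in the same contrast by a median of -0.34, with all 19 markers below 0, against 49.7% of genes. Its part in the members' values was not tested.

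**Figure D4:**
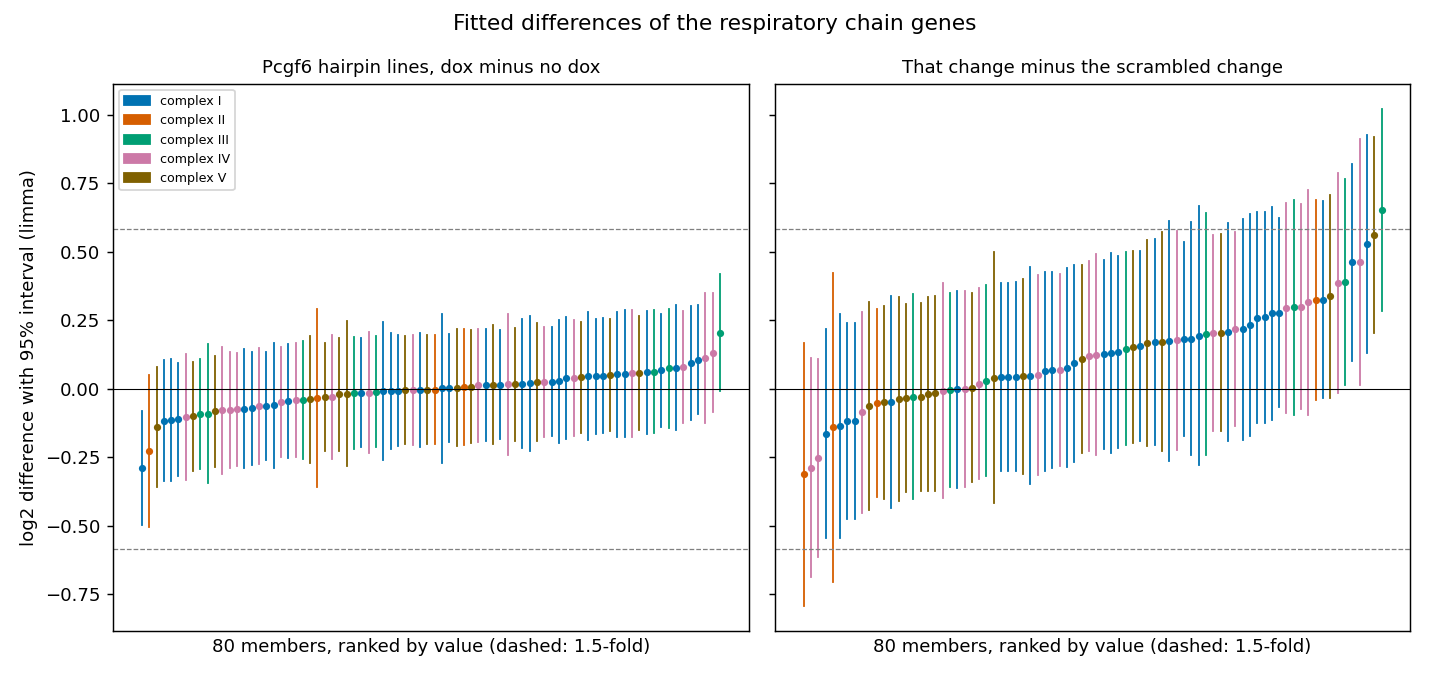
Fitted log2 differences of the 80 members with 95% intervals from limma, ranked within each panel, for dox against none in the Pcgf6 hairpin lines (left) and for that change minus the scrambled change (right); dashed lines mark 1.5-fold. All 80 intervals on the left lie inside 1.5-fold, against 51 on the right, where 57 of the 80 points are above 0.

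Because dox itself reached all 3 lines, the 3 dox arrays were also compared with the 3 uninduced arrays. The dox arrays of both hairpin lines are also the knockdown arrays, so this comparison does not separate dox from knockdown. By limma 0 of 80 members passed, as did 0 of 19938 genes (0.0%). At an unadjusted p below 0.05 there was 1 member, Ndufv3 (1.25%, against 7.16% of genes). The members' median was -0.04, beside -0.01 over all genes, and 63 members (78.8%) were below 0, against 54.8%. The fitted values ran from -0.25 to 0.07, and the 95% interval lay inside 1.5-fold for all 80 members, as for 93.5% of genes.

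Ndufv3 had the lowest value of the 3-line comparison, -0.25 (SE 0.09, 95% interval -0.46 to -0.04, n = 3 against 3, limma adjusted p = 0.673), and was lower in 3 of 3 lines. Atp5e followed with -0.17 and Uqcr10 with -0.16, while Cox8c (0.07), Ndufb3 (0.06) and Atp5md (0.05) had the highest. The value of Atp5e was -0.06 without the induced scrambled array and -0.09 without the uninduced one. The feeder list had a median of 0.38 in this comparison, with all 19 markers above 0, against 45.2% of genes. Its part in the members' values was not tested. All 3 dox arrays lay below all 3 uninduced arrays for 5 members, Atp5h, Cox6c, Cox8a, Ndufs4 and Uqcrc1 (6.25%, against 8.07% of genes), and above them for 0 (against 4.08%). There were 17 members lower with dox within every line (21.2%, against 18.5% of genes) and 1, Atp5d, higher within every line (1.25%, against 15.2%). Atp5d, the delta subunit of the central stalk, stood at 13.38 with dox and 13.33 without under hairpin 1, at 13.27 and 13.27 under hairpin 2, and at 13.35 and 13.29 in the scrambled line.

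Before induction, the hairpin lines were set against the scrambled line, 2 arrays against 1. By limma 0 of 80 members passed, as did 0 of 19938 genes (0.0%), and 3 members had an unadjusted p below 0.05, all lower in the hairpin lines (3.75%, against 3.19% of genes in that direction and 8.06% in either). The members' median was -0.07, beside -0.00 over all genes, with 59 members (73.8%) below 0, against 50.2%. The 3 members were Cox7a1, Cox6b2 and Ndufb8. The uninduced scrambled array enters this comparison, the scrambled pair and the test of the difference alike, so these results are not independent of each other. In this comparison the feeder list had a median of 0.80, and its part in the members' values was not tested.

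The tissue-restricted isoforms of complex IV were described next to their widely expressed counterparts. Cox7a1, the heart and skeletal muscle form of subunit 7a, stood at 9.29 with dox and 9.12 without under hairpin 1, at 9.23 and 9.37 under hairpin 2, and at 9.37 and 9.82 in the scrambled line. The uninduced scrambled array lay above the other 5, which ranged from 9.12 to 9.37. Before induction Cox7a1 differed between the hairpin and scrambled lines by -0.58 (SE 0.13, 95% interval -0.89 to -0.26, n = 2 against 1, limma adjusted p = 0.348). Its counterpart Cox7a2 differed by -0.17 (SE 0.11, limma adjusted p = 0.773).

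Cox6b2, the testis form of subunit 6b, stood at 9.66 with dox and 9.59 without under hairpin 1, at 9.58 and 9.42 under hairpin 2, and at 9.69 and 9.89 in the scrambled line. Both hairpin lines were slightly higher with dox, the scrambled line was lower, and both scrambled arrays lay above the 4 hairpin arrays. Before induction Cox6b2 differed by -0.39 (SE 0.12, 95% interval -0.68 to -0.10, limma adjusted p = 0.463), and with dox in the hairpin lines by 0.11 (SE 0.10, limma adjusted p = 0.793). Its counterpart Cox6b1 stood between 12.03 and 12.22 on the 6 arrays.

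The other isoforms did not pass in any comparison either. Cox7b2 and Cox8c, both known from testis, stood between 4.78 and 4.99 and between 6.59 and 6.73, and measured 0.08 (SE 0.08) and 0.04 (SE 0.09) with dox in the hairpin lines. The muscle forms Cox6a2 and Cox8b stood between 7.12 and 7.45 and between 6.17 and 6.43, and measured -0.04 (SE 0.09) and -0.10 (SE 0.10). Cox4i2, a lung form tied to low oxygen, measured -0.08 (SE 0.10) and stood between 7.39 and 7.69. Under hairpin 1 all 7 isoforms were higher with dox, by 0.01 to 0.17, where 49.6% of all genes were lower. Under hairpin 2, 5 of the 7 were lower, against 54.2% of all genes. Each of these pairs is 1 array against 1.

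Other genes of the pathway were taken from lists drawn up from general knowledge. Of the electron carriers, transporters and remaining subunits, 15 of 16 were measured apart from the members, and 1 rose and 0 fell with dox in the hairpin lines. The gene that rose was Slc25a31. It stood at 8.57 with dox and 6.36 without under hairpin 1, at 8.66 and 6.09 under hairpin 2, and at 6.31 and 6.48 in the scrambled line. Both dox arrays of the hairpin lines lay above the 4 other arrays. The rise was 2.39 on the log2 scale (SE 0.12, n = 2 against 2, limma adjusted p = 0.00134), and the difference from the scrambled change was 2.57 (SE 0.20, limma adjusted p = 0.0327). That difference did not pass when any 1 of the 4 hairpin arrays was left out, with values from 2.43 to 2.70 and limma adjusted p from 0.0505 to 0.0895.

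The somatic ADP/ATP carriers did not pass. Slc25a4 stood at 12.13 with dox and 12.42 without under hairpin 1, at 12.19 and 12.44 under hairpin 2, and at 12.49 and 12.51 in the scrambled line. It measured -0.27 in the hairpin lines (SE 0.08, limma adjusted p = 0.496), and Slc25a5 measured -0.06. Cyct, the testis form of cytochrome c, measured 0.32 (SE 0.10, limma adjusted p = 0.489). Counting the whole list, 14 of 15 genes were lower with dox in the scrambled pair, against 53.4% of all genes. The median over the list was -0.07, beside -0.01 over all genes, from 1 array against 1.

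Of the 13 subunits encoded in mitochondrial DNA, mt-Nd3 and mt-Co2 each had a probe set under its own symbol in the array's annotation. Where these probe sets lie in the genome was not analysed here. The gene mt-Nd3 stood at 12.73 with dox and 12.57 without under hairpin 1, at 12.71 and 12.63 under hairpin 2, and at 12.73 and 12.64 in the scrambled line. It was higher with dox in all 3 lines, by 0.11 in the 3-line comparison (limma adjusted p = 0.676). The gene mt-Co2 measured 0.04 in the hairpin lines and 0.03 over all 3 (limma adjusted p = 0.924).

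Assembly factors build the complexes and are not part of them. Of the complex I assembly list 14 of 15 were measured and 0 passed with dox in the hairpin lines, with a median of -0.03. Tmem126b measured -0.30 (SE 0.10, limma adjusted p = 0.513) and Ecsit -0.26 (SE 0.11). At the other end Ndufaf4 measured 0.22 (SE 0.08, limma adjusted p = 0.538) and Timmdc1 0.17 (SE 0.09). Timmdc1 was higher with dox in all 3 lines. Of the assembly list for complexes II to V 30 of 34 were measured and 0 passed, with a median of 0.02. Its extremes were Uqcc3 at -0.23 and Tmem70, an assembly factor of ATP synthase, at 0.26 (SE 0.09, limma adjusted p = 0.522).

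Of 13 regulators of respiratory genes all 13 were measured and 0 passed, with values in the hairpin lines from -0.14 to 0.07. Nrf1 measured -0.14 (SE 0.09) and Gabpa -0.07 (SE 0.08). Myc was level in the hairpin lines, at 0.00, and stood at 10.16 with dox and 9.68 without in the scrambled line. Of the genes for the upkeep and transcription of mitochondrial DNA 15 of 16 were measured and 0 passed. Mgme1, an exonuclease needed for replication of mitochondrial DNA, stood at 8.84 with dox and 9.40 without under hairpin 1, at 8.72 and 9.44 under hairpin 2, and at 9.31 and 9.39 in the scrambled line. Both dox arrays of the hairpin lines lay below the other 4. The fitted difference was -0.64 (SE 0.09), which did not pass (limma adjusted p = 0.0785).

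Of the mitochondrial chaperones and proteases 15 of 16 were measured and 0 passed, with a median of 0.03 in the hairpin lines. Atf5, a factor of the mitochondrial unfolded protein response, measured 0.15 (SE 0.10) in the hairpin lines and 0.15 over all 3 lines (limma adjusted p = 0.703). Of the tricarboxylic acid cycle list 15 of 16 were measured and 0 passed, with a median of 0.02. Of the glycolysis list 15 of 18 were measured and 0 passed, with a median of -0.10 in the hairpin lines, beside -0.01 over all genes. Aldoc measured -0.52 (SE 0.08, limma adjusted p = 0.134), Pfkl -0.41 (SE 0.09, limma adjusted p = 0.325) and Tpi1 -0.27 (SE 0.09, limma adjusted p = 0.503). In the 3-line comparison 0 genes of any of these lists passed. Without the dox array of the scrambled line Slc25a31 and Mgme1 did, Mgme1 with -0.63 (limma adjusted p = 0.0332).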

How the data were processed

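Total RNA of 6 samples was hybridised to 6 arrays. The log2 values were deposited by the authors, whose tools were RMA and Affymetrix Power Tools, per the submitters' processing notes. RMA equalises the distributions of the arrays and thereby removes a change that most genes share. The versions, options and genome build are not given in the sources used here. Genes came from the 21789 of 35556 probe sets with 1 symbol, using the probe set with the highest mean over the 6 arrays for a gene with several.

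All 19938 genes were fitted in limma 3.58.1 (R 4.3.3) with 1 mean per group (induced and uninduced Pcgf6 hairpins, induced and uninduced scrambled), with 2 residual and 4.44 prior degrees of freedom, and with 2 groups for the 3-line comparison (4 and 3.66). The single scrambled arrays were taken to vary like the hairpin arrays. Tests were two-sided, Benjamini-Hochberg adjustment ran over all genes, and the code was tested on simulated data. SE is limma's moderated standard error, and precision is limited by the number of arrays.

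The members and all 11 gene lists were chosen with earlier results of these data known. Any member could be named. Given in full were those at either end of a comparison, a line or a complex, the tissue-restricted isoforms and their counterparts, and in each list the genes past the threshold or with the strongest mean change. The hairpin number pairs the arrays, since both of a pair carry 1 hairpin. Deviations of paired arrays from their group means correlated at 0.181 over all genes and at 0.02 over the members. Alternatives were other scalings, the mean of a gene's probe sets, filters on level, an intensity trend, the hairpin as a block and leaving out each array.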

Additional observations from a re-analysis of the deposited data

Results flagged for a closer look

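The change with dox differed between the Pcgf6 hairpin lines and the scrambled line for 2 of the genes described. Pcgf6 itself differed by -2.33 on the log2 scale (SE 0.17, limma adjusted p = 0.0256), as both hairpin lines were lower with dox and the scrambled line was level. With 1 hairpin array left out at a time, its value lay between -2.40 and -2.26, and the limma adjusted p was 0.126 without the uninduced array of either hairpin, 0.0536 without the dox array of hairpin 2 and 0.0442 without that of hairpin 1. Slc25a31, the germ-cell ADP/ATP carrier, differed by 2.57 (SE 0.20, limma adjusted p = 0.0327), as both hairpin lines were higher with dox.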

How the results depend on the processing

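The count of members past the limma threshold was 0 in all 4 comparisons and under every alternative fitted, with a smallest adjusted p of 0.192 for any member. This count could differ where other genes were called, which was so under all 11 alternatives that gave new values in the hairpin comparison and 9 of 11 in the difference from scrambled. In the 3-line comparison 1 of 13 alternatives called any gene, and before induction 0 of 10, so the 0 members there say nothing about stability. The members' median in the hairpin comparison lay between -0.03 and 0.02 over the alternatives, and the median difference from scrambled between 0.10 and 0.13. In the 3-line comparison the median lay between -0.07 and -0.02, and before induction between -0.10 and -0.04. With the hairpin line as a replicate block, 0 members passed in the hairpin comparison (smallest adjusted p = 0.415), 54 of all genes were called in place of 40, and 23 in place of 14 differed from scrambled. The block fit could not be made for the uninduced lines, where line and group are the same. The number of related genes that changed with dox in the hairpin lines was 1, and it was 0 without the dimmest 50% of genes, a filter that removes Slc25a31 itself. In the 3-line comparison that number was 0, and with each array left out in turn it ranged from 0 to 2. The 2 genes, Slc25a31 and Mgme1, passed without the induced scrambled array. The 3-line value of Cox7a1 was -0.14, turned to 0.054 without the uninduced scrambled array and ranged from -0.29 to 0.054 with each array left out. Of 271 alternative values for single genes 266 kept their direction and their side of the threshold, 4 lost the call (Slc25a31 against scrambled, without each hairpin array) and 1 changed direction. Some of the 271 could not differ, as leaving out a scrambled array does not alter the hairpin comparison. Where no gene at all was called, keeping the side of the threshold says nothing about stability. The scrambled arrays are single, and no detection call was used, so how far low levels such as that of Cox7b2 stand above background was not analysed here.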
